A study of Mus musculus with 8 samples.

Results

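The aminoacyl-tRNA synthetase genes of the mouse small intestine are described here with the genes of the scaffold proteins that hold several of the enzymes together. Members were taken from the count table by symbol, as every symbol made of a capital letter and ars, with or without a final 1, 2 or l, together with Eprs, Farsa, Farsb, Aimp1, Aimp2 and Eef1e1. This gave 40 of the 24411 genes of the table, of which 20 code for cytosolic enzymes or subunits, 17 for mitochondrial enzymes (symbols ending in 2) and 3 for scaffold proteins. RNA came from the small intestine of hUGT1 transgenic mice at 14 days of age, a suckling age. The line carries the human UGT1 locus, and all animals of both groups were of this genotype. The treatment was vehicle or arsenic (10 mg/kg), and the time given for both is 24 h. RNA of 3 mice went into each library, so that 12 mice per group gave 4 vehicle pools and 4 arsenic pools. The study's title concerns fat accumulation in enterocytes, tissue growth and intestinal maturation under arsenic in suckling mice.

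Each synthetase joins a particular amino acid to its transfer RNAs, the step that supplies the ribosome with building blocks and fixes the reading of the genetic code. Cells keep a cytosolic set and a mitochondrial set, all coded in the nucleus, the mitochondrial set serving the organelle's own ribosomes. In the cytosol several enzymes sit in a multisynthetase complex held by the proteins of Aimp1, Aimp2 and Eef1e1. Transfer RNA left uncharged activates the kinase GCN2, which favours translation of the transcription factor ATF4, and ATF4 is known to induce many cytosolic synthetase genes in mouse cells. The intestinal epithelium renews itself quickly and makes much protein, so charging capacity matters there.

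Total counts ran from 18786779 to 29417666 per library. The share of these counts that fell on the 40 members was 0.226% to 0.246% in the vehicle pools and 0.318% to 0.343% in the arsenic pools. Levels are given as CPM, the counts of a gene scaled to a common library size with TMM factors, with the SD over n = 4 pools after the sign ±. Every log2 change is arsenic over vehicle. A change was called at an adjusted p below 0.05 in edgeR's quasi-likelihood test with Benjamini-Hochberg adjustment over all 15298 tested genes. Among those, 65.3% were called, 32.3% higher and 33% lower, and the median log2 change was -0.03. The pools differed in sex makeup, the summed CPM of 4 Y-linked genes being 0.531 in vehicle replicate 4, between 59.1 and 145 in 6 other pools and 199 in arsenic replicate 3. In bulk tissue, more cells of a type and more RNA per cell cannot be told apart.

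Nearly the whole family was higher with arsenic. All 40 members passed the filter on low counts, and 37 of them rose, none fell and 3 did not pass the test, beside 32.3% of all tested genes called higher. The median log2 change of the members was 0.50, against -0.03 for all tested genes. In 36 members every arsenic pool lay above every vehicle pool, which held for 30.1% of all tested genes (29.3% had every arsenic pool below). Against a fold of at least 1.5, tested with glmTreat, 8 members rose and none fell, beside 5.33% and 5.32% of all tested genes. All 37 calls were the same without vehicle replicate 4 and arsenic replicate 3. The authors' deposited table has 36 of the 40 members higher and none lower at an adjusted p below 0.05.

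**Figure D1:**
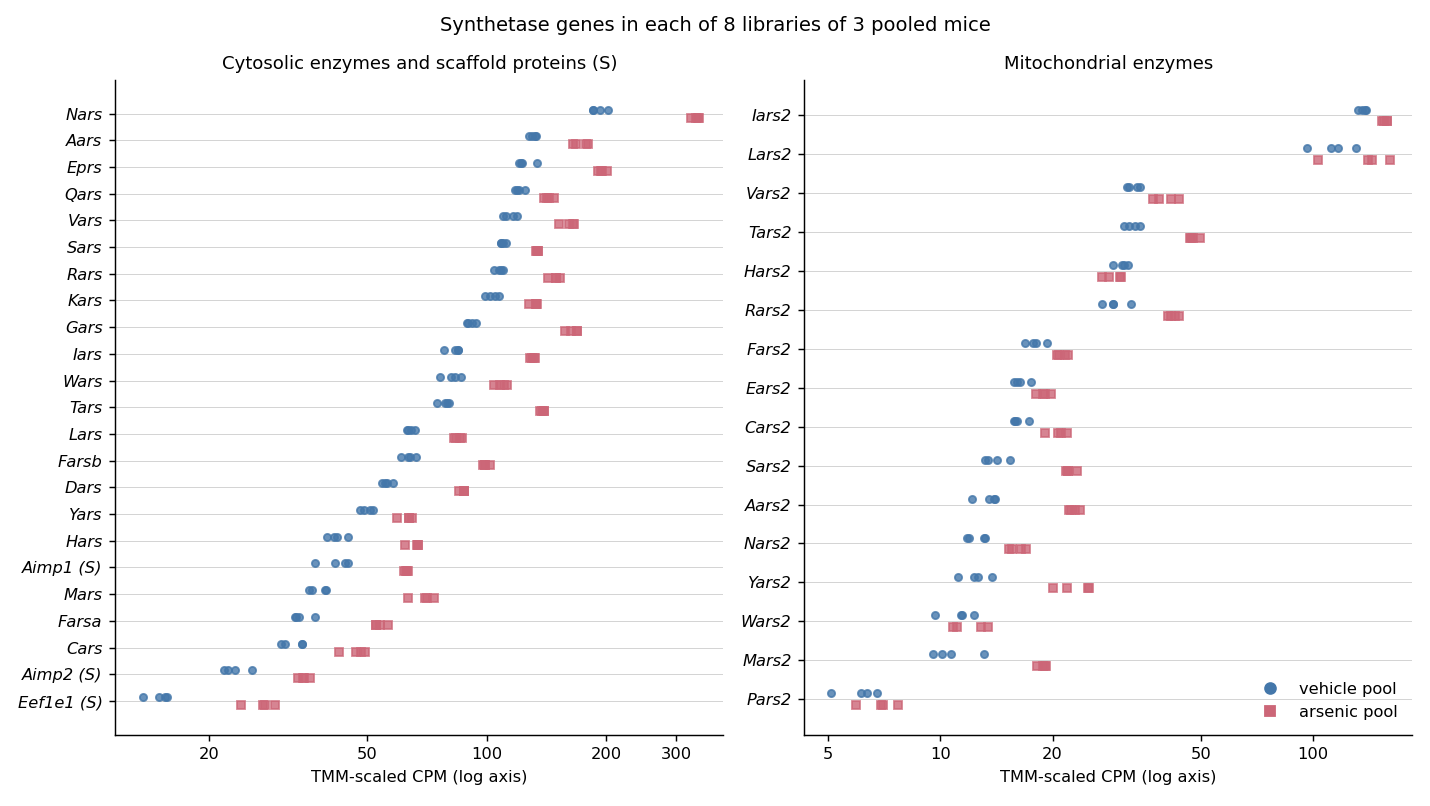
TMM-scaled CPM on a log axis for 39 members (rows) in each of the 8 libraries, with cytosolic enzymes and the 3 scaffold genes (S) at left and 16 mitochondrial enzymes at right. Circles are vehicle pools and squares arsenic pools, and they overlap only for Lars2, Hars2, Wars2 and Pars2.

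All 20 genes for cytosolic enzymes or subunits rose, beside 32.3% of all tested genes called higher. Their log2 changes ran from 0.25 (Qars) to 0.88 (Mars), with a median of 0.58. The strongest rise was that of Mars, the methionine enzyme, which also charges the initiator transfer RNA (chromosome 10, 127296221 to 127311786, minus strand, mm10 build). Mars stood at 39.1, 39.5, 36.3 and 35.7 CPM in the vehicle pools and at 73.9, 70.9, 70.1 and 63.4 CPM in the arsenic pools. Every arsenic pool was thus well above the highest vehicle pool, and the log2 change was 0.88 (SE 0.05, adjusted p = 1.32e-09, edgeR). Mars shares 68 exon bases with the stress gene Ddit3 on the opposite strand. Ddit3 fell, from 31.2 ± 1.53 to 21.9 ± 1.90 CPM.

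Gars, the glycine enzyme, is coded by a gene whose product serves both the cytosol and mitochondria. It was at 94.2, 89.4, 89.9 and 91.9 CPM with vehicle and at 169, 163, 169 and 158 CPM with arsenic. The groups were far apart, with a rise of log2 0.85 (SE 0.04, adjusted p = 6.36e-11). Tars, for threonine, was the steadiest of the strong risers. Its vehicle pools held 78.4, 80.4, 75.2 and 79.6 CPM and its arsenic pools 139.6, 138.2, 139.7 and 136.5 CPM, a log2 change of 0.82 (SE 0.03, adjusted p = 4.44e-11). Nars, for asparagine, was the most abundant member by counts. It read 202, 193, 185 and 185 CPM in the vehicle pools and 343, 340, 338 and 327 CPM in the arsenic pools. No pools overlapped, and Nars rose 1.76-fold (log2 0.82, SE 0.04, adjusted p = 3.18e-10).

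Iars, the isoleucine enzyme, was at 84.5, 84.8, 78.2 and 83.3 CPM with vehicle and at 131.5, 132.1, 128.5 and 130.2 CPM with arsenic (log2 0.66, SE 0.04, adjusted p = 6.60e-10). A processed pseudogene, Gm4849, matches 1656 bases of its transcript at 96.0% identity. Gm4849 has no row under that symbol in the count table. The sources do not say how reads that fit both were treated, so the value of Iars is uncertain to that extent. Farsa codes for the catalytic subunit of the phenylalanine enzyme. It was at 36.9, 33.6, 33.0 and 33.2 CPM in the vehicle pools and at 54.0, 52.8, 56.4 and 52.6 CPM in the arsenic pools (log2 0.66, SE 0.05, adjusted p = 8.72e-09). Farsb, its partner subunit, moved by much the same amount, from 63.7 ± 2.31 to 99.5 ± 1.64 CPM (log2 0.64, SE 0.04). The smallest cytosolic rises were those of Qars for glutamine (log2 0.25, SE 0.04), Sars for serine (0.29, SE 0.03), Yars for tyrosine (0.34, SE 0.04) and Kars for lysine (0.36, SE 0.04). Kars, like Gars, makes the enzyme of both compartments. Even Qars had no overlap, its highest vehicle pool at 125 CPM and its lowest arsenic pool at 139 CPM.

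The 8 further cytosolic enzyme genes rose by log2 0.40 to 0.64 (Aars, Lars, Wars, Rars, Vars, Cars, Dars, Eprs) and Hars, for histidine, by 0.65. Eprs, which joins the glutamate and proline enzymes in one chain, went from 125 ± 6.26 to 195 ± 4.53 CPM. Cars, for cysteine, went from 32.4 ± 2.09 to 46.7 ± 3.03 CPM. Rars, for arginine, rose from 108 ± 2.51 to 149 ± 4.06 CPM and Vars, for valine, from 114 ± 4.32 to 161 ± 6.18 CPM. Aars, for alanine, shares 1326 exon bases on the same strand with Exosc6, a gene of the RNA exosome, which rose by log2 0.74. Leaving out Gars and Kars, all 18 other cytosolic genes rose, with the same median of 0.58.

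**Figure D2:**
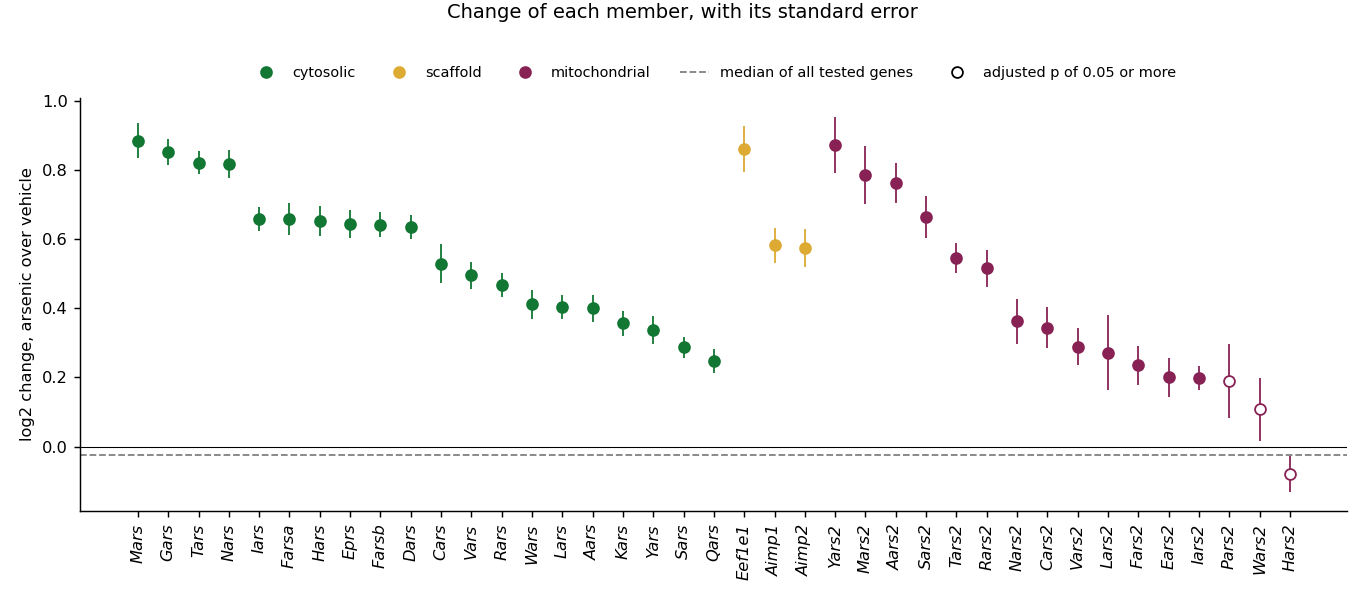
log2 change, arsenic over vehicle, of 39 members (points) with its standard error (bars), ordered by compartment, with filled points for an adjusted p below 0.05 and a dashed line at the median of all tested genes. The open points are Pars2, Wars2 and Hars2, and cytosolic genes span 0.25 to 0.88.

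The scaffold genes of the complex rose as well. Eef1e1 was at 15.5, 15.6, 14.9 and 13.7 CPM with vehicle and at 29.3, 27.3, 27.7 and 24.1 CPM with arsenic (log2 0.86, SE 0.07, adjusted p = 3.32e-08). Aimp1, whose protein is also the source of a secreted cytokine in mammals, was at 44.0, 44.8, 36.9 and 41.5 CPM in the vehicle pools and within 62.1 to 63.5 CPM in the arsenic pools (log2 0.58, SE 0.05, adjusted p = 1.08e-07). Aimp2, the core scaffold, was at 25.6, 23.2, 22.3 and 21.8 CPM and at 35.9, 34.5, 34.6 and 33.6 CPM (log2 0.57, SE 0.05, adjusted p = 2.63e-07). None of the scaffold genes had overlapping groups. Aimp2 shares 487 exon bases, 29.4% of its exons, with Eif2ak1 on the opposite strand, and Eif2ak1 fell by 0.25 on the log2 scale. The 8 enzyme genes of the complex (Eprs, Iars, Lars, Qars, Mars, Kars, Rars, Dars) had a median log2 change of 0.55 and a range of 0.25 to 0.88. The 12 cytosolic genes outside it had a median of 0.58 and a range of 0.29 to 0.85.

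Of the 17 mitochondrial enzyme genes 14 rose, none fell and 3 did not pass the test. Beside this, 32.3% of all tested genes were called higher and 33% lower. The call of Lars2, among the 14, depended on the processing, as given below. The median log2 change of the 17 was 0.34, about 1.27-fold, with a range from -0.08 to 0.87. Summed by compartment, with no scaling between libraries, the cytosolic genes made up 0.172% ± 0.00684 of the counts in vehicle pools and 0.254% ± 0.00697 in arsenic pools. The mitochondrial genes made up 0.0527% ± 0.00217 and 0.0663% ± 0.00321. No test was made of the difference between the compartments as sets.

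The largest mitochondrial rise was that of Yars2, the tyrosine enzyme of mitochondria, whose loss of function in humans causes a myopathy with anaemia (chromosome 16, 16302965 to 16309640, plus strand). Yars2 was at 13.8, 12.6, 11.2 and 12.3 CPM with vehicle and at 25.0, 24.9, 21.9 and 20.01 CPM with arsenic. The lowest arsenic pool stood far above the highest vehicle pool (log2 0.87, SE 0.08, adjusted p = 2.32e-07). Mars2, for methionine, was at 13.1, 9.56, 10.1 and 10.7 CPM and at 19.1, 19.2, 18.1 and 18.8 CPM (log2 0.79, SE 0.08, adjusted p = 9.48e-07). Vehicle replicate 1 was its highest control and still below every arsenic pool.

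Aars2, for alanine, was at 13.5, 14.0, 12.2 and 13.9 CPM with vehicle and at 23.8, 22.9, 22.2 and 22.4 CPM with arsenic (log2 0.76, SE 0.06, adjusted p = 2.60e-08). Sars2, for serine, was at 15.4, 13.2, 14.2 and 13.5 CPM and at 22.0, 23.3, 21.8 and 22.0 CPM (log2 0.66, SE 0.06, adjusted p = 1.55e-07). Both genes kept their groups apart by several CPM. Tars2, for threonine, was at 34.3, 33.3, 31.0 and 32.03 CPM in the vehicle pools and at 49.7, 46.8, 47.5 and 47.0 CPM in the arsenic pools (log2 0.55, SE 0.04, adjusted p = 4.26e-08). Rars2, for arginine, was at 32.6, 29.1, 27.2 and 29.1 CPM and at 41.7, 42.7, 43.6 and 40.9 CPM (log2 0.51, SE 0.05, adjusted p = 6.53e-07). Against a fold of at least 1.5 only Yars2, Mars2 and Aars2 passed among mitochondrial genes, and Mars, Gars, Tars and Nars among cytosolic ones, with Eef1e1 as the other member.

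Smaller mitochondrial rises included those of Nars2 for asparagine (0.36, SE 0.06), Cars2 for cysteine (0.34, SE 0.06), Vars2 for valine (0.29, SE 0.05), Fars2 for phenylalanine (0.23, SE 0.06), Ears2 for glutamate (0.20, SE 0.06) and Iars2 for isoleucine (0.20, SE 0.03). Iars2 had the highest counts of the mitochondrial genes, at 132, 138, 136 and 138 CPM with vehicle and 153, 158, 158 and 155 CPM with arsenic (adjusted p = 9.94e-05). It shares 2034 exon bases with Rab3gap2 on the opposite strand. Lars2, for leucine, varied most among the arsenic pools. It was at 112, 96.1, 116 and 130.5 CPM in the vehicle pools and at 144, 161, 140.0 and 103 CPM in the arsenic pools, so that arsenic replicate 4 lay below 3 of the 4 vehicle pools. Its log2 change of 0.27 (SE 0.11) passed the test narrowly (adjusted p = 0.0392, edgeR). The call was lost on leaving out any library numbered 1, 2 or 3 of either group (adjusted p from 0.0508 to 0.138), in DESeq2 (0.127), with the robust fit (0.179), in limma-voom (0.0528) and with upper-quartile scaling (0.0634).

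Hars2, Wars2 and Pars2 did not pass the test. Hars2, for histidine, was at 31.9, 30.7, 31.1 and 29.1 CPM with vehicle and at 27.2, 28.3, 30.4 and 30.4 CPM with arsenic (log2 -0.08, SE 0.05, adjusted p = 0.188). Wars2, for tryptophan, was at 12.3, 9.67, 11.5 and 11.4 CPM and at 13.4, 10.8, 11.1 and 12.9 CPM (log2 0.11, SE 0.09, adjusted p = 0.318). Pars2, for proline, was the member with the fewest counts, at 6.35, 5.08, 6.77 and 6.13 CPM and at 6.93, 5.95, 7.03 and 7.68 CPM (log2 0.19, SE 0.11, adjusted p = 0.133). In all 3 genes the groups overlapped, and none was called under any of the 16 alternatives.

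For 17 amino acids a cytosolic and a mitochondrial enzyme could be set against each other within each library, as the log2 ratio of their counts. Library scaling does not enter this ratio. It was higher with arsenic for 13 amino acids and lower for 4, by a median of 0.21 on the log2 scale and from -0.54 to 0.73. These values are a description and carry no test. The glutamate and proline ratios are not separate, as Eprs was the cytosolic gene of both, and Farsa alone stood for the cytosolic phenylalanine enzyme. The greatest shift was that of histidine. The log2 ratio of Hars to Hars2 was 0.49, 0.37, 0.40 and 0.52 in the vehicle pools and 1.30, 1.25, 1.13 and 1.04 in the arsenic pools, which corresponds to 1.36 and 2.26 Hars counts per Hars2 count. Hars itself was at 44.7, 39.7, 41.2 and 41.9 CPM with vehicle and 67.1, 67.2, 66.6 and 62.3 CPM with arsenic (log2 0.65, SE 0.04, adjusted p = 6.54e-09).

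Tyrosine went the other way. The log2 ratio of Yars to Yars2 was 1.91, 1.96, 2.18 and 1.96 with vehicle and 1.37, 1.36, 1.55 and 1.57 with arsenic. Yars was at 51.9, 49.0, 50.8 and 47.95 CPM and at 64.9, 63.8, 63.9 and 59.5 CPM (adjusted p = 3.67e-06), so the cytosolic gene rose as well, but by less than Yars2. Isoleucine was unusual in level. The log2 ratio of Iars to Iars2 was -0.65, -0.71, -0.79 and -0.73 with vehicle and -0.22, -0.26, -0.30 and -0.25 with arsenic, and only for isoleucine and leucine did counts of the mitochondrial gene exceed those of the cytosolic one. The ratio also fell for serine, by 0.38 on the log2 scale, and for alanine, by 0.37. For arginine, at -0.05, the groups overlapped, as they did for leucine (0.15) and methionine (0.08). Leaving out arsenic replicate 4 brought the leucine difference to 0.01, and leaving out vehicle replicate 1 brought that of methionine to 0.0075. Groups overlapped for cysteine (0.18) and tryptophan (0.31) too. The ratio rose for asparagine by 0.45, for glutamate by 0.44, for proline by 0.46 and for phenylalanine by 0.42.

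**Figure D3:**
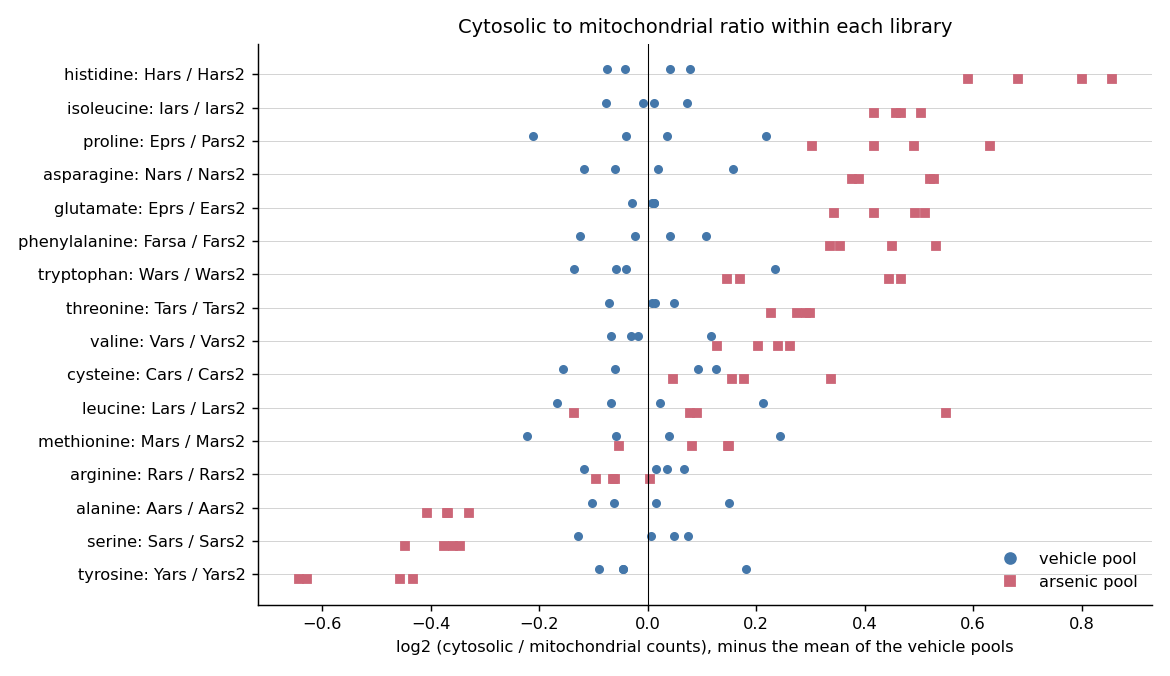
log2 ratio of cytosolic to mitochondrial counts within each library, minus the mean of the 4 vehicle pools, for 16 amino acids, with circles for vehicle and squares for arsenic pools. Histidine lies at the upper end (a difference of 0.73) and tyrosine, serine and alanine on the negative side, with leucine spread widest.

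Hars and Hars2 lie head to head, with exons that overlap by 195 bases on opposite strands, and the count table does not say how strand was used. Such divergent neighbours were found for 9 gene pairs in GENCODE M21, of which 8 join a member to a gene outside the family. Those 8 members all rose, while of their neighbours 3 rose, 1 fell and 4 did not pass the test, beside 32.3% and 33% of all tested genes called higher and lower. S100pbp, whose start lies 33 bases from that of Yars, fell by 0.69 on the log2 scale (SE 0.08, adjusted p = 2.22e-06). Orc3, a subunit of the replication origin complex 13 bases from Rars2, stood at log2 0.02 (adjusted p = 0.769). Mrps12, a mitochondrial ribosomal protein gene beside Sars2, rose by 0.32, Ubfd1 beside Ears2 by 0.33 and Lyrm4, for an iron-sulfur cluster protein, beside Fars2 by 0.51. Terf2ip beside Kars and Pms2 beside Aimp2 stood at -0.07 and 0.11.

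Promoter windows from RefSeq (GRCm38.p6 assembly, 250 bases before to 50 after a gene's start) were matched for 30 of the 40 members, 32 windows in all. They were searched on both strands for TGATGNAA, the core of the element that ATF4 binds with C/EBP proteins in amino acid response genes. It was present in 5 of the 13 cytosolic windows (38.5%), in 0 of 15 mitochondrial and in 0 of 4 scaffold windows. These windows belong to 13 of the 20 cytosolic, 14 of the 17 mitochondrial and all 3 scaffold genes, and the other members were not searched. It occurs in 3.97% of all 32851 windows, and in 2.35% of the 14666 windows of tested genes. The 5 genes were Aars, Gars, Iars, Tars and Yars. Their log2 changes were 0.40, 0.85, 0.66, 0.82 and 0.34, which spans most of the cytosolic range. A match of each gene is shown because it lay close to the start, from 30 bases before it to 9 bases after. Each line gives 30 bases, 5′ to 3′ on the gene's strand, with the match in capitals.
Aars, chr8:111033840-111033869, plus strand: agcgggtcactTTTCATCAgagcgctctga
Gars, chr6:55037960-55037989, plus strand: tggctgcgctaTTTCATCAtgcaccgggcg
Iars, chr13:49682126-49682155, plus strand: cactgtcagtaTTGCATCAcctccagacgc
Tars, chr15:11399655-11399684, minus strand: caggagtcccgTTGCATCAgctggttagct
Yars, chr4:129189895-129189924, plus strand: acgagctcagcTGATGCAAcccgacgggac
The first 4 lines carry the element in its reverse orientation and Yars carries it forward. A match is a description of letters, and binding was not measured.

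The 250 bases before the start of Gars, the strongest riser with a match, and of Yars2, the strongest mitochondrial riser, which has none, are set side by side to show the context.
Gars, chr6:55037751-55038000, plus strand: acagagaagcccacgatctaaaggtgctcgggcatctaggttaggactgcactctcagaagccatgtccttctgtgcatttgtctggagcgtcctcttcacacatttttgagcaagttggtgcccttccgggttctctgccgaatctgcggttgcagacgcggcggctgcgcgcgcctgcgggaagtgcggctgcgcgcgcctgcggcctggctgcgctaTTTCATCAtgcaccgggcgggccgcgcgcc
Yars2, chr16:16302715-16302964, plus strand: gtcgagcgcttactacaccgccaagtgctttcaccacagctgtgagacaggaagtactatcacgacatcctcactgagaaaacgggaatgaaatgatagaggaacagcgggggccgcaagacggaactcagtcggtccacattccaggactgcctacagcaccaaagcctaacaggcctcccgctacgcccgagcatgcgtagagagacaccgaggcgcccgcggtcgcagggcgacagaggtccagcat
Capitals mark the match in Gars. Other motifs searched on both strands were TGACNNNGC, the core of the antioxidant response element (10 of 32 member windows and 12.4% of all windows, or 14.1% of those of tested genes), the E-box CACGTG (5 of 32, against 7.15% and 9.34%) and the NRF1 element, named for a regulator of genes for mitochondrial proteins (6 of 32, against 4.6% and 8.52%). The NRF1 element was in 2 of the 15 mitochondrial and 3 of the 13 cytosolic windows.

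Levels were compared between genes per kilobase of the GENCODE principal transcript. With vehicle, cytosolic genes ran from 10.1 (Cars) to 69.7 (Nars) CPM per kb with a median of 25.6, and mitochondrial genes from 0.962 (Mars2) to 29.2 (Lars2) with a median of 7.93. Nars stood first at 69.7 ± 2.93 CPM per kb, above all others. Kars at 51.4 ± 1.74 and Rars at 51.0 ± 1.19 followed and differed by less than their spread, and Wars at 44.9 ± 2.31 and Qars at 43.1 ± 1.10 were likewise close. Among mitochondrial genes only Lars2 and Iars2 (24.9 ± 0.513) reached the cytosolic median or came near it. With arsenic, Nars stayed first at 123 ± 2.59 CPM per kb, and Rars at 70.5 ± 1.92 and Gars at 69.2 ± 2.30 came next within their spread. Level and log2 change were not closely related across genes, with Spearman's rho of -0.21 over 20 cytosolic and -0.16 over 17 mitochondrial genes, which share the same 8 libraries. The level of Mars2 rests on an annotated transcript of 11294 bases.

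**Figure D4:**
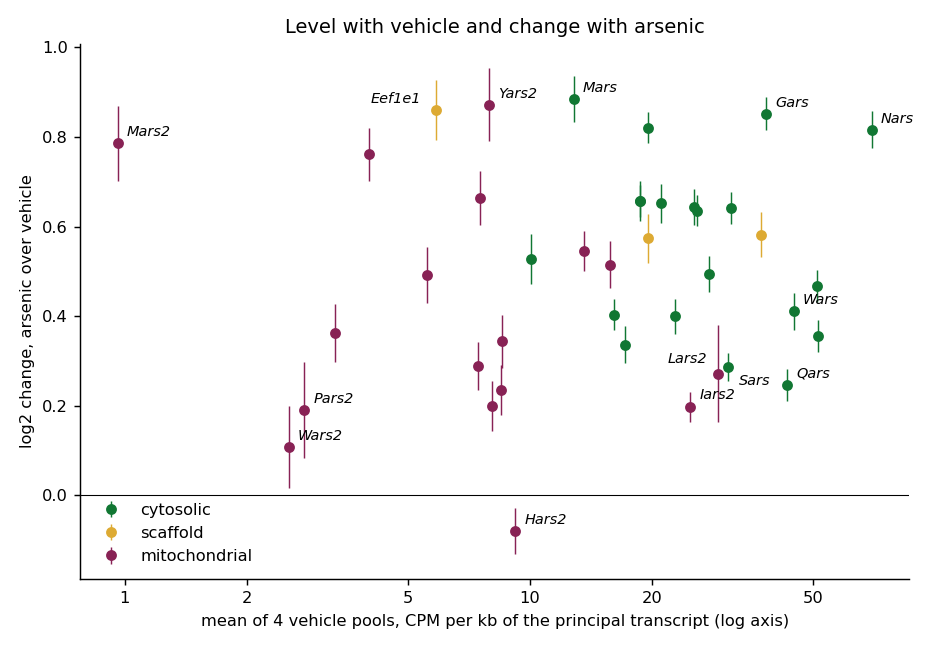
Mean level of the 4 vehicle pools in CPM per kb of the principal transcript (log axis) against the log2 change with its standard error, by compartment. Nars lies farthest right at 69.7 CPM per kb, and strong risers are found at high and low levels alike.

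Genes that work beside the synthetases moved mostly the same way. Of 14 genes listed as partners of charging, 10 rose and none fell, with a median log2 change of 0.37. The list is wider than help or correction of charging, as it also holds Tarsl2, a synthetase gene outside the rule for members, and Yrdc. Aarsd1, which removes wrongly attached amino acids from alanine transfer RNA, rose from 17.1 ± 1.60 to 33.6 ± 1.46 CPM (log2 0.97, adjusted p = 5.00e-09), and Yrdc, which modifies transfer RNAs at the base beside the anticodon, from 14.5 ± 0.664 to 24.5 ± 1.23 CPM (log2 0.75). Mitochondria lack a glutamine enzyme and convert glutamate on the transfer RNA through the amidotransferase of Qrsl1, Gatb and Gatc, which rose by 0.74, 0.20 and 0.23. Of 18 genes of transfer RNA maturation and export 15 rose and 1, the nuclease gene Elac1, fell by 0.22 on the log2 scale. Nsun2, a transfer RNA cytosine methyltransferase, rose from 80.9 ± 3.20 to 139 ± 3.25 CPM (log2 0.78), and the export receptor Xpot from 74.4 ± 1.74 to 99.3 ± 1.30 CPM (log2 0.42). Counts of genes called higher are again to be read beside 32.3% for all tested genes.

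Genes of mitochondrial translation factors and of elongation factor 1 rose in part, and their counts stand beside 32.3% of all tested genes called higher. Of 10 mitochondrial translation factors 6 rose and 4 did not pass, with a median log2 change of 0.20. Gfm1, the mitochondrial translocation factor, rose from 50.3 ± 1.83 to 115 ± 4.02 CPM (log2 1.19, adjusted p = 5.57e-12), and Tufm, the factor that delivers charged transfer RNA, from 100.1 ± 6.25 to 187 ± 8.35 CPM (log2 0.90). Of 5 genes of cytosolic elongation factor 1 all but Eef1a2 rose, led by the exchange factor subunits Eef1d (log2 0.99, from 87.5 ± 3.80 to 174 ± 3.19 CPM) and Eef1g (0.75, from 308 ± 23.7 to 519 ± 12.4 CPM).

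Genes of the sensing of uncharged transfer RNA were divided. Of 5 genes 3 rose and 1 fell. Eif2s1, the subunit of initiation factor 2 that the kinase acts on, rose by log2 0.85 (from 57.2 ± 2.85 to 103 ± 2.66 CPM), Gcn1l1, which couples ribosomes to the kinase, by 0.44, and Atf4 by 0.30 (from 155 ± 3.43 to 191 ± 5.84 CPM). Eif2ak4, the gene of GCN2 itself, was at 20.4 ± 0.916 and 17.9 ± 1.88 CPM with overlapping groups (log2 -0.19, adjusted p = 0.0321). Its call was lost in DESeq2 and on leaving out any of 6 libraries (vehicle 1, 2 and 3, arsenic 2, 3 and 4). Of 22 ATF4 targets other than synthetases 14 rose and 4 fell, beside 32.3% and 33% of all tested genes, which also stand beside the counts of the sensing list. Phgdh, of serine synthesis, rose by log2 1.42 and Shmt2, of mitochondrial folate metabolism, by 1.21, whereas Aldh18a1 of proline synthesis, the stress gene Sesn2, Ddit3 and the transcription factor gene Cebpg stood lower, at log2 -1.02, -0.89, -0.50 and -0.22.

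Wars, the tryptophan enzyme of the cytosol, is known in human cells as a gene strongly induced by interferon gamma. It was at 86.4, 83.4, 76.4 and 81.1 CPM with vehicle and at 111, 108, 113 and 104 CPM with arsenic (log2 0.41, SE 0.04, adjusted p = 5.73e-07). The 14 listed genes induced by interferon gamma moved the opposite way, 13 of them lower and none higher, with a median log2 change of -1.17, beside 33% of all tested genes called lower. B2m, the light chain of MHC class I, fell from 1341 ± 109.6 to 479 ± 11.1 CPM (log2 -1.49), and the immunity-related GTPase Igtp from 23.6 ± 2.65 to 4.91 ± 0.302 CPM (log2 -2.27).

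**Figure D5:**
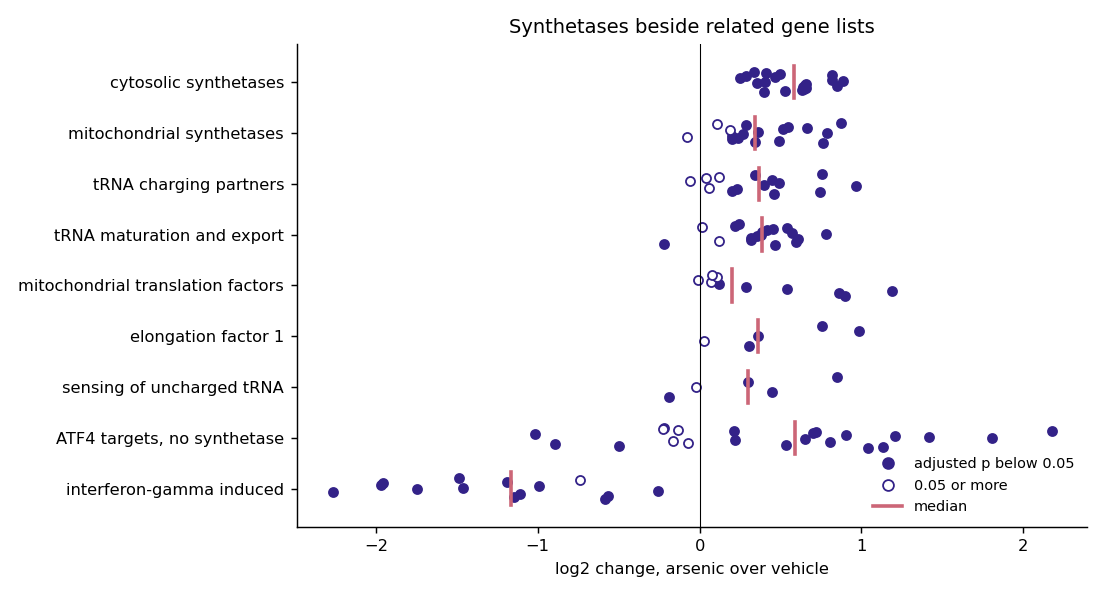
log2 change, arsenic over vehicle, of each gene (points, filled for an adjusted p below 0.05) in the cytosolic and mitochondrial synthetases and in 7 related lists, with the median of each as a vertical bar. Medians run from 0.59 for ATF4 targets to -1.17 for genes induced by interferon gamma.

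Markers of the cells in the tissue moved as well, and their counts stand beside 32.3% of all tested genes called higher and 33% called lower. Of 13 epithelial markers 8 rose, among them Vil1 (log2 0.33) and Fabp2 (0.69). The 3 that fell were Epcam (log2 -0.39), Alpi (-0.33) and Chga (-0.52), while Cdh1 (-0.07) and Lyz1 (-0.03) were not called. The summed level of the 13 was 14420 to 16290 CPM with vehicle and 18270 to 20760 CPM with arsenic. Defining genes of the labelled tissue were thus present. All 6 markers of cycling cells rose (median log2 0.80, summed 561 to 653 and 946 to 1006 CPM). Smooth muscle markers rose in 5 of 5 (1630 to 1792 and 1925 to 2341 CPM). Markers fell in 4 of 4 tested for T cells (15.9 to 16.7 and 8.68 to 10.3 CPM), 5 of 6 for macrophages (313 to 318 and 195 to 235 CPM), 5 of 5 for B and plasma cells (18.7 to 26.0 and 15.6 to 18.1 CPM) and 4 of 5 for endothelium with 1 higher (334 to 370.2 and 263 to 271 CPM). Markers of liver fell in 2 of 4 tested (77.4 to 98.3 and 34.9 to 42.8 CPM). Of 9 tested markers of pancreatic acinar cells, which make much protein, 1 fell (Cel) and none rose, and their sums overlapped, at 4379 to 8498 and 3860 to 8687 CPM. No list had a gene at 0 in every library. The part of these shifts in the rise of the synthetases was not tested.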

How the data were processed

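RNA of 8 pools was sequenced. The labels' protocols name TRIzol and a stranded mRNA kit. The tools listed in the submitters' processing notes are STAR 2.7.9a, bcl2fastq 2.20 and DESeq2 1.34.0, with the build mm10. What counted the reads, with which annotation and strand setting, is not given in these sources. The authors deposited raw counts per gene symbol, which were the input of every test, and a table of log2 fold changes with p-values and adjusted p-values. Their normalized counts and regularized log values were not used.

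Genes were kept by filterByExpr (minimum count 10, minimum total 15), libraries were scaled by TMM, and edgeR 4.0.16 (R 4.3.3) tested the group as the only term, two-sided, with Benjamini-Hochberg adjustment over all genes. The standard error is the log2 change divided by the root of the quasi-F statistic. The test was also run on simulated counts in which far fewer genes changed than were called here. That run does not check the scaling or the test under so many changes. Alternatives were RLE and upper-quartile scaling, no filter, at least 1 CPM in 4 libraries, DESeq2 1.42.0, a robust fit, limma-voom (limma 3.58.1), each library left out, vehicle replicate 4 and arsenic replicate 3 left out together, Gars and Kars taken out of the cytosolic class, and glmTreat against a 1.5-fold change. Replicate numbers only name libraries. The labels describe separate pools, and no library repeated another of its group (chi-square over degrees of freedom, 3.06 to 14.0 between libraries).

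Positions, exon overlaps and transcript lengths came from GENCODE M21, matched by symbol, and shared sequence from blastn of member transcripts (at least 100 bases at 95% identity). Apart from Gm4849, alignments to other genes reached at most 221 bases. The members and gene lists were chosen with earlier results of these data known. Values in every library were given for the 6 cytosolic and 6 mitochondrial enzyme genes with the largest called change, the 3 scaffold genes, members not called, and the genes of the 3 amino acids with the largest shift in ratio, and of each related list the 2 genes with the smallest p were taken. Lars2, Wars, Qars, Eif2ak4, Atf4, Ddit3, Elac1, Exosc6, Eif2ak1, Cdh1, Lyz1, the amidotransferase genes, the divergent neighbours and the listed genes that fell were named after their values were seen. A mitochondrial member counted in the totals and a promoter sequence are not reported here by themselves.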

Additional observations from a re-analysis of the deposited data

Results flagged for a closer look

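In 5 of the 80 groups of 4 pools examined, over 40 members, a pool stood apart from the other 3 by more than Dixon's critical value allows. Chance flags about 1 in 20 such groups. Dars in arsenic replicate 2 was at 85.1 CPM, with the other arsenic pools at 87.7 to 88.0 CPM. Farsa in vehicle replicate 1 was at 36.9 CPM, with the others at 33.0 to 33.6 CPM. Hars in arsenic replicate 4 was at 62.3 CPM, with the others at 66.6 to 67.2 CPM. Kars in arsenic replicate 4 was at 128 CPM, with the others at 133 to 134 CPM. Sars2 in arsenic replicate 2 was at 23.3 CPM, with the others at 21.8 to 22.0 CPM. In each of these genes the arsenic pools all remained above the vehicle pools.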

How the results depend on the processing

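The 20 cytosolic genes were called higher under each of 16 alternatives in scaling, filter, test or libraries, and no member was called lower under any. With 1 library left out, 36 to 37 members and 13 to 14 mitochondrial genes were higher, and the median log2 change was 0.57 to 0.61 for cytosolic and 0.32 to 0.38 for mitochondrial genes. Across scalings, filters and tests, 36 to 37 members were higher, the difference being Lars2. Of 640 recomputed log2 changes of members, 630 kept their direction and side of the threshold, and the other 10, all of Lars2, kept their direction only. Against a 1.5-fold change 8 members were higher, and 815 and 814 of all genes were higher and lower. In the list on sensing of uncharged transfer RNA the number lower was 0 in DESeq2 and 0 to 1 with a library left out, since Eif2ak4 lost its call; the cause was not tested. Ratios of cytosolic to mitochondrial counts kept their sign with any library left out, from -0.58 to -0.48 for tyrosine and from 0.69 to 0.78 for histidine. The small rises of the leucine and methionine ratios nearly vanished, with ranges of 0.01 to 0.24 (lowest without arsenic replicate 4) and 0.0075 to 0.16 (lowest without vehicle replicate 1), and that of arginine ran from -0.09 to -0.03. The median log2 change of all genes was -0.02 with RLE and -0.05 with upper-quartile scaling. No paired analysis was possible because the labels give the groups no shared replicate numbers. Pars2 and Wars2 had the fewest counts of all members with arsenic, and how far depth limits their values was not tested.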

Other observations

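The pools agreed closely in the level of cytosolic genes, with a median coefficient of variation of 3.58% with vehicle and 2.66% with arsenic, against 6.31% and 4.72% for mitochondrial genes, which have fewer counts. By catalytic fold, the 9 cytosolic genes of class I had a median log2 change of 0.47 and the 10 of class II one of 0.65, and the 9 and 8 mitochondrial genes of the same classes had medians of 0.29 and 0.43. Eprs, which holds a domain of each class, was left out of this split, and no test was made of it. Tarsl2, which codes for another cytosolic threonine enzyme outside the rule for members, was at 8.69 ± 0.503 and 12.0 ± 0.908 CPM and rose by log2 0.46 (SE 0.08, adjusted p = 0.000102, edgeR), beside 0.82 for Tars.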
